A study of Mus musculus with 12 samples.

Results

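The 50 genes described here are mouse genes of mitosis and the G2/M transition, taken as a list of symbols, and all 50 were found among the 31017 gene symbols of the count table. RNA was sequenced from the mouse mammary carcinoma line 4T1, grown for 4 days in gels of collagen I with 2% serum. The ETV4 knockout groups, with and without FGF, came from cells nucleofected with Cas9 and a guide RNA against ETV4, an ETS transcription factor. The control groups, with and without FGF, received Cas9 and a control guide. Cells of the FGF groups had 25 ng/ml of FGF10 together with 40 ng/ml of FGF2 from seeding on, first in 10% serum until the next day. The protocol names a lower (1.2 mg/ml) and a higher (2.4 mg/ml) concentration of collagen without tying them to libraries. Each of the 4 groups had 3 libraries. All 6 knockout libraries carry 1 shared tag in their library names, and a pool or a single clone would both fit the labels; if it was 1 clone, clone and genotype cannot be told apart. Replicates are not said to be separate cultures, so each p-value reflects library-to-library spread that may be technical.

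Entry into mitosis is driven by the kinase CDK1 bound to cyclins A and B. Its inhibitory phosphates are removed by CDC25 phosphatases, and the kinases PLK1, Aurora A and Aurora B then act on centrosomes, kinetochores and chromosomes. The spindle checkpoint holds the anaphase-promoting complex in check until every kinetochore is attached; that ubiquitin ligase then has cyclin B and securin degraded, and separase cuts cohesin. The genes of this machinery are transcribed together in late S, G2 and M phase. They are known to be controlled by the MuvB complex with B-MYB and FOXM1 through the CHR element TTTGAA, and by NF-Y through CCAAT boxes, while the DREAM complex represses them in resting cells.

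These promoter elements were looked for first, since the genes are known for them. RefSeq promoter windows (GRCm38.p6, 250 bases before to 50 after the start) were matched for 39 of the 50 genes. CCAAT, read on both strands, was present in 30 of the 39 windows (76.92%), against 37.92% of 27025 promoters in the table. TTTGAA was present in 29 (74.36%), against 18.11% of all promoters, and 25 windows (64.1%) held both, against 7.12%. Neither motif contains the other. With the search narrowed to the positions from -50 to 45, a window chosen after the printed positions had been seen, TTTGAA was present in 27 of 39 windows (69.23%) and in 4.92% of all promoters. A match is a description of the letters, not evidence of binding.

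The 4 windows below show both ends of that range among the genes given in full: those of Top2a and Ube2c held the most matches, and those of Nusap1 and Tacc3 held none. Capitals mark CCAAT or TTTGAA on either strand (ATTGG and TTCAAA on the other strand). Each window is written 5′ to 3′ on the strand of its gene.
Top2a: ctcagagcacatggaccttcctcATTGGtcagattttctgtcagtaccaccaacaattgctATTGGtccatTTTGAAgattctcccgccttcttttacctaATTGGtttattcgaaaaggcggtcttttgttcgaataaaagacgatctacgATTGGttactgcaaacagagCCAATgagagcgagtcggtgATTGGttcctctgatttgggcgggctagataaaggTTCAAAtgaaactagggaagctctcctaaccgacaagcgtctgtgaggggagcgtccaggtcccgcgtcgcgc
Ube2c: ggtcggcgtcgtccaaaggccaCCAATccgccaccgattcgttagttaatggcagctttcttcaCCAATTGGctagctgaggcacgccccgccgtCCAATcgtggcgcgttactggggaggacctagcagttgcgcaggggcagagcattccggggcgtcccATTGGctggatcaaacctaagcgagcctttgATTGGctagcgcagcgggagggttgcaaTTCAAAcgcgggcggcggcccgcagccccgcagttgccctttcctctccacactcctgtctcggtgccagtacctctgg
Nusap1: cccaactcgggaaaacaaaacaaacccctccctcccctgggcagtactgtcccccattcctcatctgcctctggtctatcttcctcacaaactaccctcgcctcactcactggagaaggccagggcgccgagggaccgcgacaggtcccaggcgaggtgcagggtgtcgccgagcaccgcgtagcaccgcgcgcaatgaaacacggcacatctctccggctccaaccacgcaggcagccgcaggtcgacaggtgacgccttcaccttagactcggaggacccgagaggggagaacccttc
Tacc3: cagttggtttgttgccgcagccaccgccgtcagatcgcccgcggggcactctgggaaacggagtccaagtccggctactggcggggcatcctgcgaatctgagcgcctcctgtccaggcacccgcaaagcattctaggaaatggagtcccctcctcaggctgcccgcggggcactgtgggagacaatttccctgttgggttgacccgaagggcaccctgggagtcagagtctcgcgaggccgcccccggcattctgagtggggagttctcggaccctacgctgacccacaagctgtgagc
The Top2a window (chr11:99024140-99024439, minus strand) had 6 CCAAT matches and 2 TTTGAA matches, 1 of them beginning 23 bases before the start. The Ube2c window (chr2:164769679-164769978, plus strand) also had 6 CCAAT matches, and its TTTGAA match began 29 bases before the start. The Nusap1 window is chr2:119618048-119618347 and the Tacc3 window chr5:33657878-33658177, both on the plus strand.

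Library totals lay between 18229429 and 23193244 counts. A gene counts as called where its Benjamini-Hochberg adjusted p is below 0.05 in the edgeR quasi-likelihood test over 12079 genes. CPM are read counts scaled to the TMM-normalized library size. All 50 genes passed the filter on low counts; their lowest count in any library was 465 and their median was 2410.5. Etv4 RNA was still detected, at 113.1 to 119.5 CPM in knockout and 154.5 to 173 CPM in control libraries with FGF, and at 116 to 159 CPM in knockout and 162.2 to 167.9 CPM in control libraries without FGF. A guide-made mutation need not lower the transcript. The 9 epithelial markers of a fixed list summed to 4465 to 4597 CPM in knockout and 5199 to 5815 CPM in control libraries with FGF. Without FGF they summed to 4812 to 6839 CPM in knockout and 5008 to 5182 CPM in control libraries. The value of 6839 CPM was that of knockout replicate 2, and replicates 1 and 3 were at 4835 and 4812 CPM. Of 6 fibroblast markers 3 had no count in any library, as had 2 of 6 leukocyte markers and 1 of 4 endothelial markers; these lists summed to at most 15.85, 11.51 and 0.7482 CPM. The part of such cells in the results was not tested.

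Knockout replicate 2 without FGF stood apart from its 2 partners. The 50 genes deviated from their mean in replicates 1 and 3 by between -0.95 (Cenpf) and 0.67 (Spc24) on the log2 scale. Across the 50 genes this deviation correlated (Spearman) at -0.566 with the exon length of the gene and at 0.598 with its GC content; across all genes tested the values were -0.473 and 0.497. Long, AT-rich transcripts such as those of Cenpf, Ect2, Cenpe, Mki67 and Anln were low in that library, and short, GC-rich ones such as those of Spc24, Cdc20 and Cdca3 were high. The median coefficient of variation of the 50 genes was 10.32% in that group, against 2.759% in knockout with FGF, 4.18% in control with FGF and 2.796% in control. In control replicate 2 with FGF the same correlations were -0.545 and 0.39 across the 50 genes, with deviations between -0.29 and 0.31. In control replicate 3 without FGF they were -0.564 and 0.452, with deviations between -0.13 and 0.17. Changes on leaving out knockout replicate 2 are stated for the knockout effect on the 50 genes. They cover changed calls and named values that moved by over 1.5 times.

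**Figure D1:**
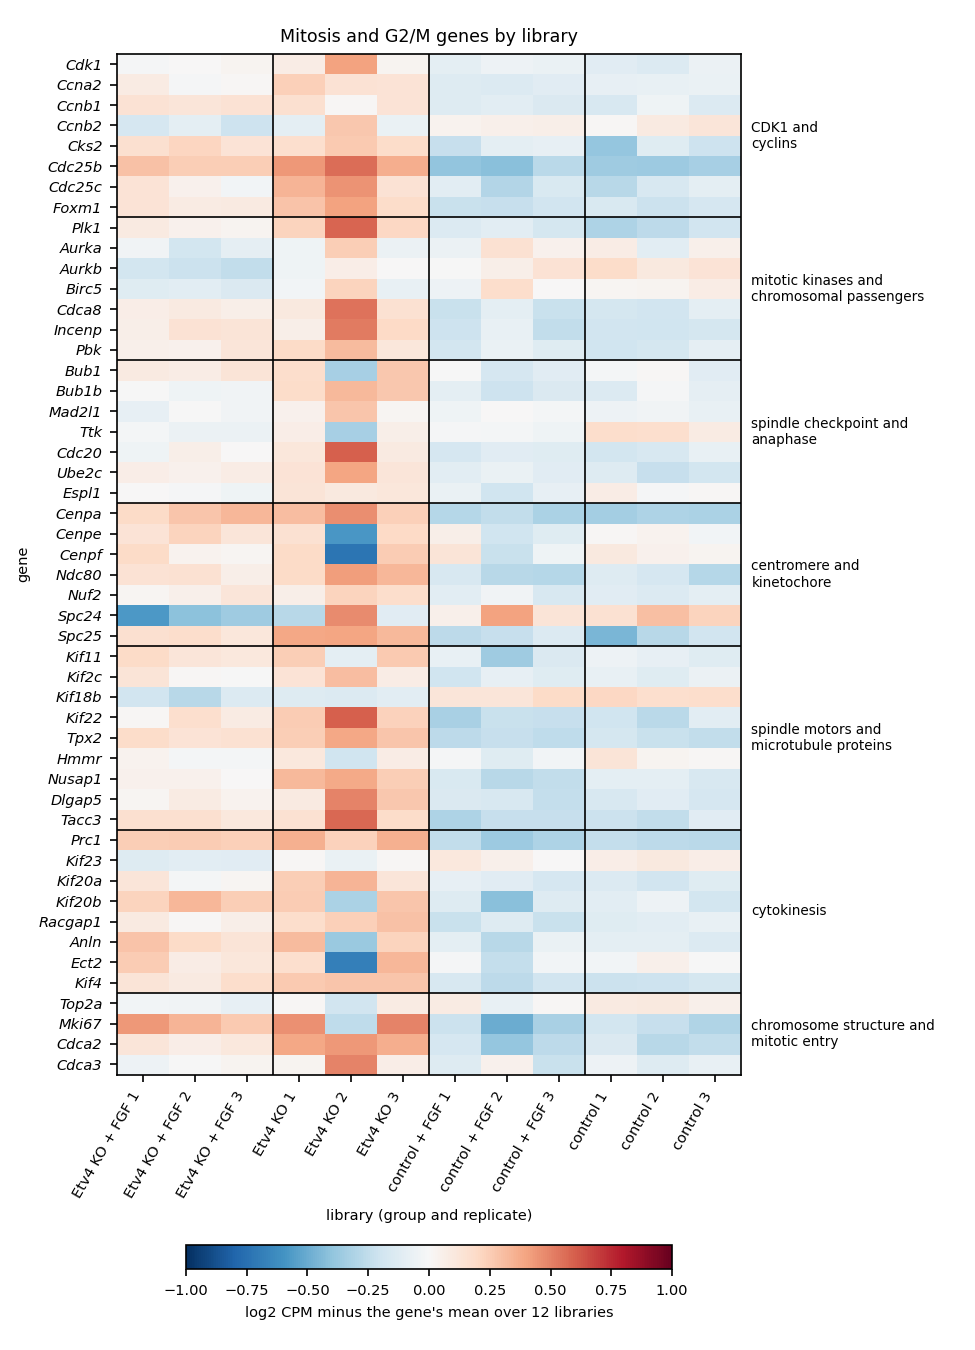
Log2 CPM of the 50 genes in each of the 12 libraries, as the difference from the mean of each gene over all libraries; rows are genes by role and columns are libraries. Most rows are red in the 6 knockout libraries on the left, and knockout replicate 2 without FGF reaches further in both directions than its partners.

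As a group these genes were higher in knockout than in control cells. Summed over the 50 genes, the level was 7882 ± 112.3 CPM in knockout and 6777 ± 135.1 CPM in control libraries with FGF, and 8363 ± 166.9 CPM in knockout and 6964 ± 18.72 CPM in control libraries without FGF (SD, n = 3 each). The lowest knockout library, at 7778 CPM, lay above the highest control library, at 6978 CPM. In bulk RNA, a larger share of cells in G2 and M phase and more RNA per such cell cannot be told apart.

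With FGF, 20 of the 50 genes rose in knockout cells and 4 fell (Kif18b, Spc24, Aurkb and Kif23); of all genes tested, 18% were called higher and 22.2% lower. Without FGF, 30 rose and 1, Kif18b, fell, where 22.5% of all genes were called higher and 23.3% lower. The share called higher among the 50 was thus above the background in both conditions, and the share called lower was below it. The median log2 fold change of the 50 genes was 0.21 with and 0.31 without FGF, against -0.01 for all genes tested in both. These comparisons share no library, but both came from the same fit, in which all groups share 1 estimate of spread. Of the genes that rose, 18 were called in both, which is 90% of those called with FGF and 60% of those called without. The groups did not overlap for 43 of the 50 genes (86%) with FGF and for 36 (72%) without FGF, against 61.4% and 53.6% of all genes tested. Leaving out knockout replicate 2, no call was lost, and calls also became more frequent among all genes. The counts were then 35 higher and 7 lower with FGF, where 28.11% of all genes were called higher and 30.51% lower, and 36 higher and 4 lower without FGF, where the shares were 26.25% and 28.24%. With FGF that library is not among those compared and no value moved by more than 0.0021 on the log2 scale, but 15 further genes passed as higher (Ccna2, Cdc25c, Plk1, Cdca8, Bub1, Bub1b, Cdc20, Ube2c, Cenpe, Nuf2, Kif2c, Dlgap5, Kif20a, Anln and Ect2) and 3 as lower (Ccnb2, Aurka and Birc5). Without FGF, 6 further genes passed as higher (Bub1, Cenpe, Kif11, Kif20b, Anln and Ect2) and 3 as lower (Ccnb2, Aurkb and Spc24).

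**Figure D2:**
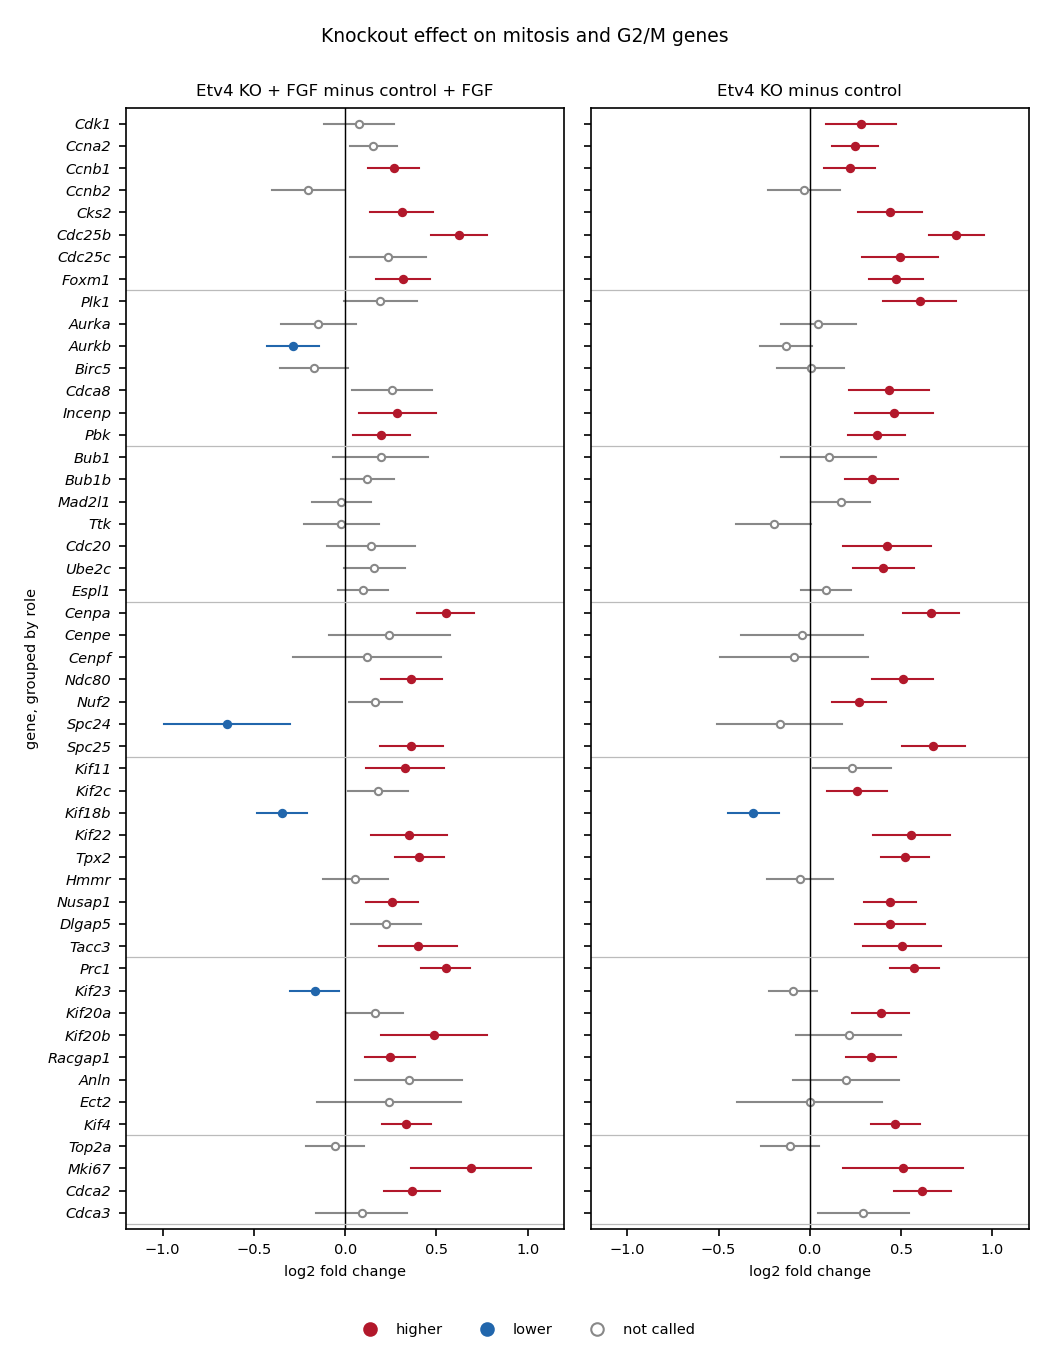
Log2 fold change of each of the 50 genes between knockout and control cells, with FGF on the left and without FGF on the right; bars are 95% confidence intervals, and filled points passed the test. The called genes are mostly to the right of 0 in both panels, with Cdc25b at 0.62 with and 0.80 without FGF, and Kif18b is to the left in both.

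Compared per kilobase of exon, the genes spanned more than an order of magnitude in level. Cdc20 was the highest in every group, with a mean over all libraries of 98.04 CPM per kb. Cks2 was above Top2a in both knockout groups (94.43 against 77.61 CPM per kb with FGF and 96.7 against 78.67 without) and below it in both control groups (76.26 against 80.72 with FGF and 71.36 against 84.84 without). Cdc25c was the lowest at 5.941 CPM per kb, below Espl1 at 9.038.

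Of the 8 genes grouped under CDK1 and cyclins, 4 rose in knockout cells with FGF and 7 without FGF, and none fell in either. Cdc25b, a phosphatase that activates CDK1, had the smallest p of the 50 genes without FGF. It was at 137, 132 and 132 CPM in knockout libraries, against 84.8, 83.3 and 92.3 CPM in control libraries with FGF (log2 0.62, SE 0.07, adjusted p = 1.68e-05). In the absence of FGF it was at 151, 164 and 144 CPM in knockout libraries, against 87.1, 86.9 and 88.7 CPM in control libraries (log2 0.80, SE 0.07, adjusted p = 1.87e-06). The fitted level was 54.1% higher in knockout cells with FGF and 74.5% higher without FGF, and no library of either control group reached the lowest knockout library. Cks2, a small subunit of CDK complexes, was at 64.7, 67.4 and 63.9 CPM in knockout and 49.4, 54.2 and 54.7 CPM in control libraries with FGF (log2 0.31, SE 0.08, adjusted p = 0.00767). Without FGF, Cks2 was at 65.3, 69.5 and 66.01 CPM in knockout and 44.3, 53.4 and 50.4 CPM in control libraries (log2 0.44, SE 0.08, adjusted p = 0.000695). Its groups did not overlap in either condition. Foxm1, the transcription factor of late cell cycle genes, rose by a log2 of 0.32 with and 0.47 without FGF, and Ccnb1, which encodes cyclin B1, by 0.27 and 0.22. Cdk1 itself, Ccna2, which encodes cyclin A2, and the phosphatase gene Cdc25c rose without FGF (0.28, 0.25 and 0.50) but did not pass the test with FGF (0.08, 0.15 and 0.24); the change between conditions is tested below. Leaving out knockout replicate 2, Cdk1 was at 0.15 without FGF (adjusted p = 0.0150), and Ccna2 (adjusted p = 0.00490) and Cdc25c (adjusted p = 0.0140) passed with FGF too. The calls without FGF of Cdk1 and Ccnb1 were each lost in 3 of 22 alternative fits, and that of Ccna2 in 1. Ccnb2, the gene of cyclin B2, passed in neither condition (-0.20 with and -0.03 without FGF); in the fit that leaves out knockout replicate 2 it was called lower with FGF (-0.20, adjusted p = 0.00146) and without FGF (-0.16, adjusted p = 0.0223).

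Among the mitotic kinases and the chromosomal passenger complex, the members did not move together. Of 7 genes, 2 rose and 1 fell with FGF, and 4 rose without FGF. Plk1, a kinase of mitotic entry and spindle assembly, was at 128, 124 and 123 CPM in knockout and 110, 112 and 107 CPM in control libraries with FGF (log2 0.19, SE 0.09, adjusted p = 0.116). Without FGF it was at 141, 181 and 139 CPM in knockout and 97.5, 101 and 106 CPM in control libraries (log2 0.60, SE 0.09, adjusted p = 0.000198). The difference passed the test only without FGF, although the groups did not overlap in either condition, and without knockout replicate 2 it passed in both (0.19 with and 0.47 without FGF). Incenp, the scaffold of the passenger complex, was at 278, 296 and 291 CPM in knockout and 231, 253 and 225 CPM in control libraries with FGF (log2 0.29, SE 0.10, adjusted p = 0.0338). Without FGF, Incenp was at 278, 382 and 306 CPM in knockout and 233, 232 and 237 CPM in control libraries (log2 0.46, SE 0.10, adjusted p = 0.00208). Its highest library was knockout replicate 2, and its change without FGF is 0.32 without that library. Aurkb, the kinase of the same complex, went the other way: it was at 75.6, 73.8 and 72.3 CPM in knockout and 85.8, 89.5 and 94.9 CPM in control libraries with FGF (log2 -0.29, SE 0.07, adjusted p = 0.00390). Without FGF, Aurkb was at 83.1, 89.7 and 86.2 CPM in knockout and 97.4, 91.95 and 94.3 CPM in control libraries (log2 -0.13, SE 0.07, adjusted p = 0.123). It therefore fell with FGF, a change of -17.95%, and without FGF it was called lower when knockout replicate 2 was left out (-0.16, adjusted p = 0.0274). Of the other 2 passenger subunits, Cdca8 (borealin) rose without FGF (0.43) and Birc5 (survivin) passed in neither condition (-0.17 with and 0.0038 without FGF). Pbk, a mitotic kinase gene, rose in both (0.20 with and 0.37 without FGF), and Aurka, the kinase of centrosomes and spindle poles, passed in neither (-0.15 with and 0.05 without FGF). With FGF the Pbk call was lost in 11 of 22 alternative fits and the Incenp call in 6. Leaving out knockout replicate 2, Cdca8 passed in both (0.26 with and 0.28 without FGF), and with FGF Birc5 (adjusted p = 0.0113) and Aurka (adjusted p = 0.0489) were called lower. Without FGF, Birc5 and Aurka were at -0.09 and -0.06 in that fit, and neither was called.

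In the spindle checkpoint and anaphase group none of 7 genes was called with FGF, by edgeR or DESeq2, and none had an unadjusted p under 0.05; 3 rose without FGF. Cdc20, the activator of the anaphase-promoting complex, was at 175, 189 and 181 CPM in knockout and 161, 168 and 166 CPM in control libraries with FGF (log2 0.14, SE 0.11, adjusted p = 0.349). In the absence of FGF it was at 196, 274 and 193 CPM in knockout and 159.8, 162 and 172 CPM in control libraries (log2 0.42, SE 0.11, adjusted p = 0.00751). Knockout replicate 2 was the highest of all 12 libraries, and without it the change in the FGF-free groups is 0.24 (adjusted p = 0.000636), over 1.5 times smaller. Ube2c, the ubiquitin-conjugating enzyme of that complex, was at 171, 169 and 172 CPM in knockout and 152, 156 and 151 CPM in control libraries with FGF (log2 0.16, SE 0.08, adjusted p = 0.118). Without FGF, Ube2c was at 179.7, 215 and 177 CPM in knockout and 149, 139 and 144 CPM in control libraries (log2 0.40, SE 0.08, adjusted p = 0.000991). The groups were separate in both conditions. Bub1b, which encodes the checkpoint protein BUBR1, was at 143, 139 and 140.3 CPM in knockout and 134, 125 and 129.6 CPM in control libraries with FGF (log2 0.12, SE 0.07, adjusted p = 0.166). Without FGF, Bub1b was at 163, 179 and 173 CPM in knockout and 130.1, 142 and 135 CPM in control libraries (log2 0.34, SE 0.07, adjusted p = 0.00117). The checkpoint kinase genes Bub1 and Ttk, the checkpoint gene Mad2l1 and the separase gene Espl1 passed in neither condition, with values between -0.20 (Ttk without FGF) and 0.19 (Bub1 with FGF). Leaving out knockout replicate 2, 4 of the 7 genes were called higher with FGF, namely Bub1, Bub1b, Cdc20 and Ube2c (adjusted p from 0.00465 for Bub1 to 0.0447 for Bub1b). In that fit Bub1 was also higher without FGF (0.26, adjusted p = 0.000988), and Ttk and Mad2l1 were at -0.08 and 0.08 there.

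Of 7 centromere and kinetochore genes, 3 rose and 1 fell with FGF, and 4 rose without FGF. Cenpa, the histone H3 variant that marks centromeres, was at 216, 229.8 and 238 CPM in knockout and 156, 159.7 and 152 CPM in control libraries with FGF (log2 0.55, SE 0.07, adjusted p = 5.27e-05). Without FGF it was at 235, 262 and 224 CPM in knockout and 149.5, 153 and 152 CPM in control libraries (log2 0.66, SE 0.07, adjusted p = 1.05e-05). The knockout libraries were all higher, by 46.4% with and 58.3% without FGF in the fit. The 4 subunits of the NDC80 complex, which binds microtubules, did not share a direction. Spc25 was at 45.03, 45.6 and 43.5 CPM in knockout and 33.6, 34.2 and 36.6 CPM in control libraries with FGF (log2 0.36, SE 0.08, adjusted p = 0.00284). Without FGF, Spc25 was at 52.7, 53.1 and 50.5 CPM in knockout and 29.3, 33.3 and 35.2 CPM in control libraries (log2 0.68, SE 0.08, adjusted p = 2.35e-05). Its binding partner in the complex, Spc24, was low in knockout cells in all but 1 library. It was at 36.2, 40.7 and 42.1 CPM in knockout and 56.1, 71.3 and 59.1 CPM in control libraries with FGF (log2 -0.65, SE 0.16, adjusted p = 0.00589). Without FGF, Spc24 was at 44.5, 75.1 and 49.8 CPM in knockout and 60.2, 66.4 and 63.1 CPM in control libraries (log2 -0.17, SE 0.16, adjusted p = 0.418). Without knockout replicate 2 it was called lower without FGF as well (-0.42, adjusted p = 0.000322). Ndc80 rose in both conditions (0.36 with and 0.51 without FGF) and Nuf2 without FGF (0.27; 0.17 with FGF). The Nuf2 call was lost in 1 of 22 alternative fits. The kinetochore motor gene Cenpe and the kinetochore gene Cenpf passed in neither condition. Without FGF their values were -0.04 and -0.09 with all libraries, and 0.17 (adjusted p = 0.0285) and 0.17 (adjusted p = 0.0597) without knockout replicate 2, so that Cenpe was then called higher.

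**Figure D3:**
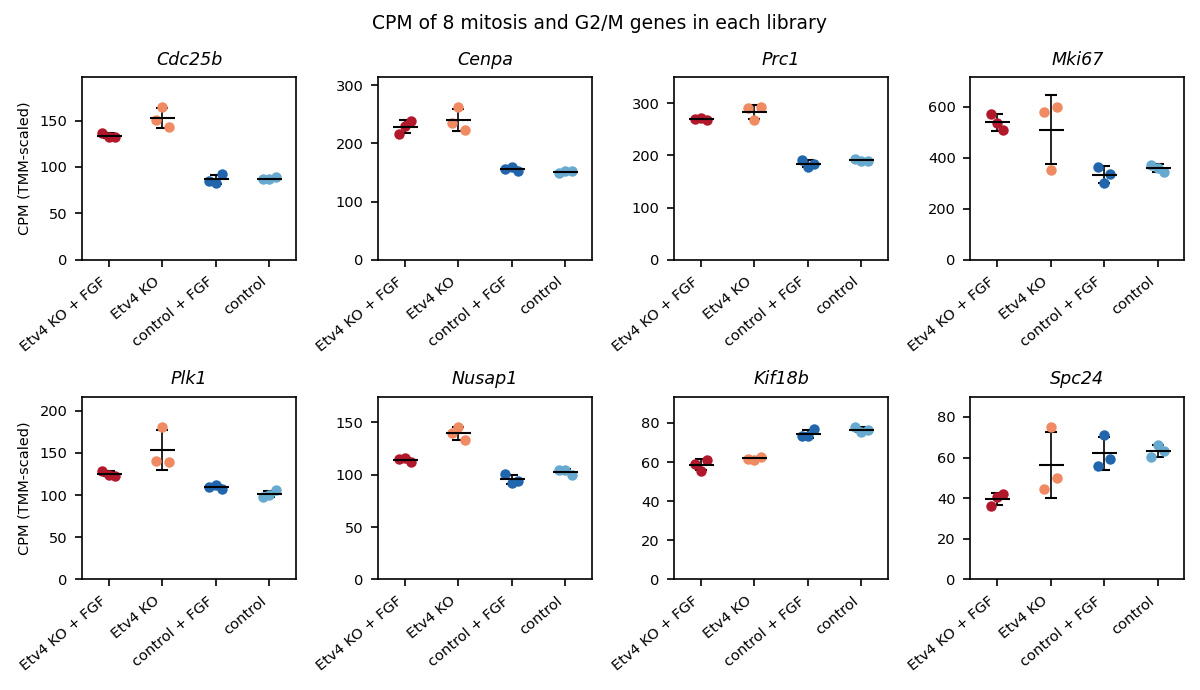
CPM of 8 genes in each library, by group, on linear axes that start at 0; black marks are the mean and SD of 3 libraries. Cdc25b, Cenpa and Prc1 are higher in every knockout library than in every control library, Kif18b is lower in every one, and Mki67 and Spc24 have 1 knockout library apart from the others.

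Of 9 motors and microtubule proteins of the spindle, 5 rose and 1 fell with FGF, and 6 rose and 1 fell without FGF. Tacc3, a protein of spindle microtubules and centrosomes, was at 195, 196 and 188 CPM in knockout and 141, 149 and 149 CPM in control libraries with FGF (log2 0.40, SE 0.10, adjusted p = 0.00559). In the absence of FGF it was at 194, 259 and 198 CPM in knockout and 151, 148 and 161 CPM in control libraries (log2 0.50, SE 0.10, adjusted p = 0.00110). Nusap1, which bundles spindle microtubules, was at 115, 116 and 112 CPM in knockout and 101, 92.2 and 94.2 CPM in control libraries with FGF (log2 0.26, SE 0.07, adjusted p = 0.00685). Without FGF, Nusap1 was at 140.1, 146 and 133 CPM in knockout and 105, 104 and 100.1 CPM in control libraries (log2 0.44, SE 0.07, adjusted p = 0.000160). Both genes, whose promoter windows held neither motif, were higher in every knockout library than in every control library of the same condition. Kif18b, a kinesin that shortens the plus ends of microtubules, was the 1 gene of the 50 that fell in both conditions. It was at 59.2, 55.5 and 61.2 CPM in knockout and 73.3, 73.3 and 76.8 CPM in control libraries with FGF (log2 -0.35, SE 0.06, adjusted p = 0.000836). Without FGF, Kif18b was at 61.7, 61.2 and 62.6 CPM in knockout and 77.9, 75.6 and 76.2 CPM in control libraries (log2 -0.31, SE 0.06, adjusted p = 0.00164). The fitted change was -21.3% with and -19.3% without FGF, with no overlap and little spread in any group. Tpx2, the activator of Aurora A, and the chromokinesin gene Kif22 rose in both conditions (Tpx2 0.41 with and 0.52 without FGF, Kif22 0.35 and 0.56). Kif2c, a microtubule-depolymerising kinesin, and Dlgap5, which stabilises kinetochore fibres, rose without FGF (0.26 and 0.44; 0.18 and 0.22 with FGF). The Kif2c call without FGF and the Kif22 call with FGF were each lost in 2 of 22 alternative fits. Kif11, the motor that separates the spindle poles, rose with FGF (0.33). Its value without FGF was 0.23, and 0.34 once knockout replicate 2 was left out. The Kif11 call was lost without replicate 2 of control with FGF, and without replicate 1 of knockout with FGF. Hmmr, a spindle pole protein, passed in neither condition (0.05 with and -0.05 without FGF). Leaving out knockout replicate 2, Hmmr was at 0.04 without FGF.

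Of the 8 cytokinesis genes 4 rose and 1 fell with FGF, and 4 rose without FGF. Prc1, which crosslinks the microtubules of the central spindle, was at 270, 271 and 268 CPM in knockout and 192, 177 and 184 CPM in control libraries with FGF (log2 0.55, SE 0.06, adjusted p = 1.58e-05). Without FGF it was at 291, 267 and 292 CPM in knockout and 193, 190 and 189 CPM in control libraries (log2 0.57, SE 0.06, adjusted p = 1.10e-05). It had the smallest p of the 50 genes with FGF, and every knockout library was above every control library. Anln, which encodes the actin-binding protein anillin, was at 570.3, 533 and 513 CPM in knockout and 438, 386 and 446 CPM in control libraries with FGF (log2 0.35, SE 0.14, adjusted p = 0.0554). Without FGF, Anln was at 583, 361 and 546 CPM in knockout and 437, 436 and 426 CPM in control libraries (log2 0.20, SE 0.14, adjusted p = 0.248). Here too 1 knockout library, replicate 2, lay below the controls, and without it the gene was called higher without FGF (0.38, adjusted p = 6.93e-06). In the FGF-free groups Kif20b, a kinesin gene, was at 0.21 on the log2 scale, and at 0.38 once replicate 2 was left out. Ect2, the activator of RhoA at the cleavage furrow, was at -0.0006, and at 0.25 once it was left out; both were then called. With FGF, Kif20b rose (0.49) and Ect2 did not pass (0.24). The Kif20b call was lost without control replicate 2 with FGF (adjusted p = 0.06975). That library was at 91.7 CPM, and both of its partners were at 112 CPM. Racgap1 and Kif23 encode the 2 subunits of centralspindlin; Racgap1 rose in both conditions (0.25 with and 0.33 without FGF), and Kif23 fell with FGF (log2 -0.17, SE 0.06, adjusted p = 0.0426; -0.09 without FGF). The Kif23 call was lost in 13 of 22 alternative fits. Kif4, a chromokinesin, rose in both (0.34 with and 0.47 without FGF), and Kif20a, a kinesin of the central spindle, without FGF (0.39; 0.16 with FGF).

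The last 4 genes act on chromosome structure or at mitotic entry, and 2 of them rose in both conditions. Top2a, the topoisomerase that disentangles sister chromatids, had the highest CPM of all 50 genes. It was at 711, 705 and 683 CPM in knockout and 765, 689 and 729 CPM in control libraries with FGF (log2 -0.06, SE 0.07, adjusted p = 0.575). In the absence of FGF it was at 729, 633 and 765 CPM in knockout and 769, 777 and 749 CPM in control libraries (log2 -0.11, SE 0.07, adjusted p = 0.243). The groups overlapped in both conditions, and without knockout replicate 2 the Top2a value without FGF was -0.03. Cdca2, a targeting subunit of protein phosphatase 1 on chromatin, was at 77.5, 74.7 and 76.4 CPM in knockout and 63.3, 54.6 and 59.5 CPM in control libraries with FGF (log2 0.37, SE 0.07, adjusted p = 0.00130). Without FGF, Cdca2 was at 93.2, 96.3 and 91.7 CPM in knockout and 64.6, 58.8 and 60.01 CPM in control libraries (log2 0.62, SE 0.07, adjusted p = 2.06e-05). Mki67, the Ki-67 protein that coats mitotic chromosomes, was at 572, 536 and 508 CPM in knockout and 365, 301 and 338 CPM in control libraries with FGF (log2 0.69, SE 0.15, adjusted p = 0.00285). Without FGF, Mki67 was at 579.8, 354 and 597 CPM in knockout and 373, 361 and 343 CPM in control libraries (log2 0.51, SE 0.15, adjusted p = 0.0152). Without FGF 1 knockout library lay among the controls, and the change is 0.71 without it. The Mki67 call without FGF was lost in 4 of 22 alternative fits, and its values in these fits ran from 0.38 to 0.71. Cdca3, which triggers the degradation of a mitotic entry inhibitor, passed in neither condition (0.09 with and 0.29 without FGF); without knockout replicate 2, where it was highest, the value without FGF was 0.13.

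FGF10 and FGF2 changed few of these genes. In control cells none of the 50 was called in either direction by edgeR, none had an unadjusted p under 0.05, and DESeq2 called none; of all genes tested, 0.257% were called higher and 0.232% lower. The median log2 fold change of the 50 genes was -0.03, with a range from -0.17 (Ttk) to 0.11 (Plk1). The intervals bound the size of what could have been missed: for Cdc25b the 95% interval was -0.17 to 0.14, for Prc1 -0.18 to 0.09 and for Cenpf, which had the widest, -0.50 to 0.31.

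In knockout cells 3 genes fell with FGF and none rose, where 1.47% of all genes tested were called higher and 0.944% lower. DESeq2 called 5 lower and none higher, where it called 2.598% of all genes lower and 3.541% higher. No gene of the 50 above 0 had an unadjusted p under 0.05 in edgeR. Nusap1 was at 114 ± 1.88 CPM in knockout cells with FGF and 139.5 ± 6.40 CPM without (SD, n = 3 each; log2 -0.29, SE 0.07, adjusted p = 0.0373). Bub1b was at 141 ± 2.16 CPM with and 172 ± 8.22 CPM without FGF (log2 -0.29, SE 0.07, adjusted p = 0.0413), and Cdca2 at 76.2 ± 1.40 and 93.7 ± 2.38 CPM (log2 -0.30, SE 0.07, adjusted p = 0.0476). For all 3 genes the libraries of the groups did not overlap, and the fitted change was -18.02%, -17.95% and -18.7%. The calls lay close to the threshold: Nusap1 and Bub1b lost theirs in 13 of 22 alternative fits and Cdca2 in 15. Of the 50 genes, 40 had a negative log2 fold change, with a median of -0.15 against -0.02 for all genes tested, and 20 (40%) had an unadjusted p under 0.05, against 19.7% of all genes. The shift was not particular to them. Of 56 DNA replication genes 49 were negative (median -0.17), and 51.8% had an unadjusted edgeR p under 0.05. Of 63 other mitotic genes 39 were negative (median -0.08), and 25.4% had such a p. Without knockout replicate 2, all 50 values were below 0 and 6 genes were called lower, namely Ccna2, Aurkb, Bub1b, Nusap1, Racgap1 and Cdca2; 4.781% of all genes were then called higher and 2.983% lower.

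**Figure D4:**
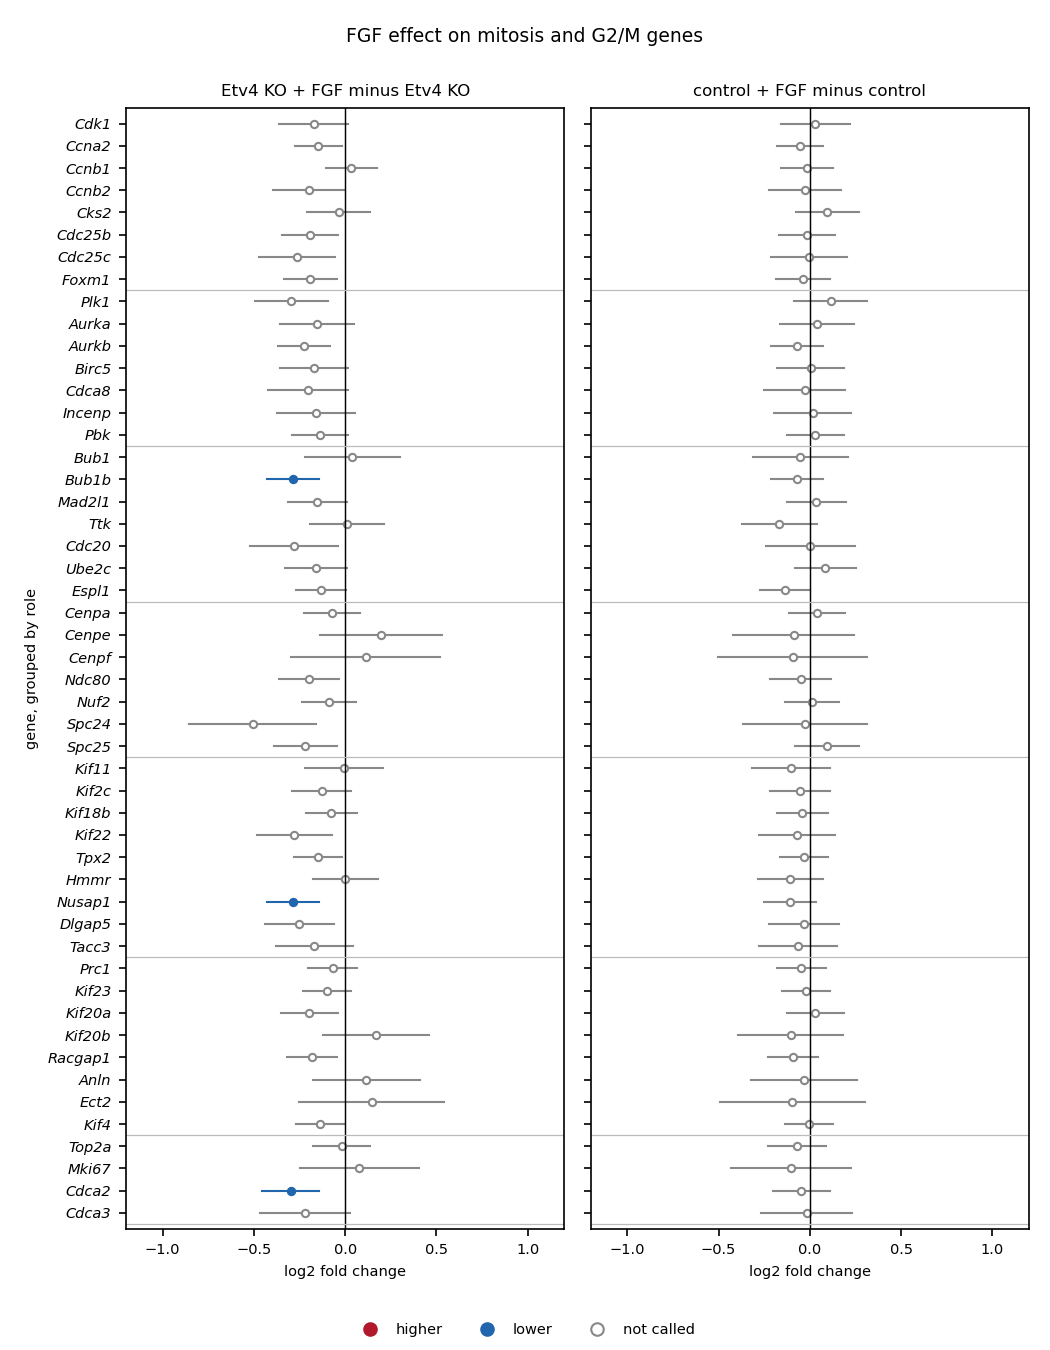
Log2 fold change of each of the 50 genes with FGF, in knockout cells on the left and in control cells on the right; bars are 95% confidence intervals, and filled points passed the test. In knockout cells 40 of 50 points are left of 0 and 3 are called, and in control cells 36 are left of 0 and none is called.

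Whether the FGF effect differed between genotypes was tested as an interaction. No gene of the 50 passed, by edgeR or by DESeq2, and 6 (12%) had an unadjusted p under 0.05, against 10.2% of all genes; of all genes tested, 0.0166% were called higher and 0% lower. A difference in the FGF effect on these genes between knockout and control cells was thus not detected, and the calls in knockout cells alone do not show one. Plk1 had the smallest p, with an FGF effect of -0.29 in knockout cells (-0.16 without knockout replicate 2) and 0.11 in control cells. The difference was -0.41 (SE 0.13, 95% interval -0.69 to -0.13, adjusted p = 0.439), and -0.28 (adjusted p = 0.0776) without knockout replicate 2. Spc25, Cdca2, Bub1b and Ube2c followed with differences of -0.31, -0.25, -0.22 and -0.24, and adjusted p from 0.480 to 0.485. The median difference over the 50 genes was -0.14, and -0.08 without knockout replicate 2.

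Other cell cycle genes, from lists that hold none of the 50, were read beside them, against the background of 18% called higher and 22.2% lower with FGF, and 22.5% and 23.3% without FGF. Of 63 other mitotic genes, 19 rose (30.2%) and 5 fell (7.94%) in knockout cells with FGF, and 22 rose (34.9%) and 2 fell (3.17%) without FGF. Ccnf, an F-box cyclin, rose in both (0.62 with and 0.66 without FGF), as did Ckap2l (0.39 with and 0.50 without FGF), a spindle protein, and Pkmyt1 (0.57 with and 0.56 without FGF), a kinase that inhibits CDK1. Of 56 DNA replication genes 11 rose (19.6%) and 10 fell (17.9%) with FGF, shares near the background, and 24 rose (42.9%) and 2 fell (3.57%) without FGF. Rrm2, a ribonucleotide reductase subunit, rose by 0.55 with and 0.70 without FGF, and Uhrf1, a maintenance factor of DNA methylation, by 0.52 and 0.57, while Mcm4, a subunit of the replicative helicase, fell in both (-0.41 and -0.40). For the FGF effect in knockout cells, 2 of the 56 genes were called lower (3.57%, against 0.944% of all genes tested) and none higher. There the helicase gene Mcm5 and the thymidylate synthase gene Tyms fell (-0.37 and -0.42).

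Among 24 transcription factors of the E2F, RB, MuvB and NF-Y families, 5 rose (20.8%, near the background) and 3 fell (12.5%) with FGF, and 8 rose (33.3%) and 2 fell (8.33%) without FGF. The NF-Y subunit gene Nfya rose in both (0.51 with and 0.45 without FGF), as did E2f1 (0.33 with and 0.60 without FGF) and E2f2 (0.52 with and 0.62 without FGF). Log2 fold changes of the 24 genes ran from -0.39 to 0.72 with FGF (median 0.09) and from -0.51 to 0.62 without FGF (median 0.11). Of 22 tested CDK inhibitors and p53 targets, 6 rose (27.3%) and 1 fell (4.55%) with FGF, and 7 rose (31.8%) and 6 fell (27.3%) without FGF. The inhibitor genes Cdkn2d (0.89 with and 1.12 without FGF) and Cdkn2c (0.39 with and 0.46 without FGF) were higher in knockout cells in both. The list did not share that direction. Its log2 fold changes ran from -0.53 to 0.89 with FGF (median -0.02) and from -1.39 to 1.12 without FGF (median 0.08). Of 9 G1 cyclin and CDK genes 1 rose (11.1%) with FGF, and 3 rose (33.3%) and 2 fell (22.2%) without FGF; Cdk2 fell (-0.36) and the cyclin D1 gene Ccnd1 rose (0.21) without FGF.

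The knockout effect also varied by chromosome, for these genes and for all others. On chromosome 11, which carries Etv4, the median log2 fold change of 986 genes was -0.41 with and -0.37 without FGF. Chromosome 16, which carries neither Etv4 nor any of these mitotic genes, was about as low, at -0.37 with and -0.40 without FGF. Chromosome 17 had the highest medians, 0.25 with and 0.31 without FGF. A low median was thus not particular to the chromosome of Etv4. The 5 mitotic genes on chromosome 11, Aurkb, Birc5, Hmmr, Kif18b and Top2a, had medians of -0.17 and -0.11. None of them rose, while 2 fell with FGF and 1 without FGF. The other genes of chromosome 11 were rarely called higher too (2.84% with and 3.347% without FGF). Most were called lower (61.46% with and 57.1% without FGF). Kif18b lies 1120 kb and Top2a 2746 kb from Etv4. Set against the other genes of the chromosome, all 5 values were higher in both conditions, by a median of 0.23 with and 0.26 without FGF. Of the 45 genes elsewhere, 20 rose and 2 fell with FGF, and 30 rose and none fell without FGF. Over all genes tested, those of chromosome 11 included, 18% were called higher and 22.2% lower with FGF. The shares without FGF were 22.5% and 23.3%. Of these 45, 40 with and 41 without FGF were above the median of the other genes on their chromosome. The 5 genes on chromosome 9, Anln, Ccnb2, Kif23, Spc24 and Ttk, had medians of -0.17 with and -0.09 without FGF, where the other genes had -0.14 and -0.15. The part of these shifts in the calls was not tested.

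**Figure D5:**
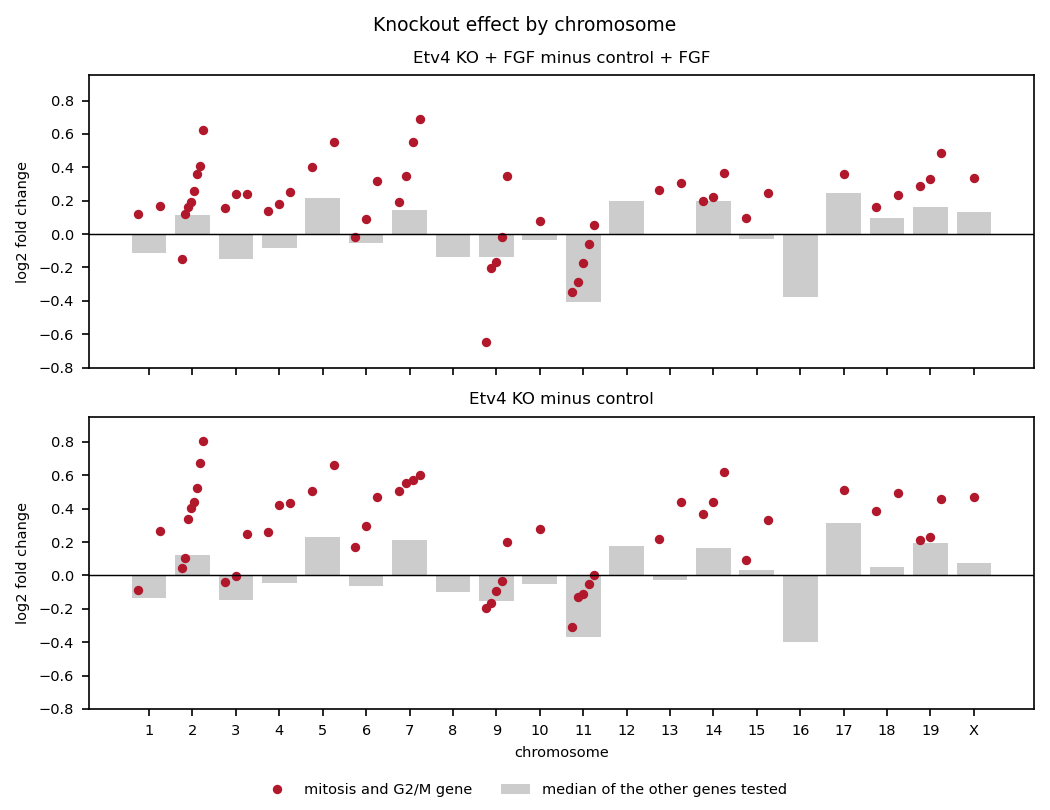
Knockout effect by chromosome, with FGF above and without FGF below; red points are the 50 genes, and grey bars are the median of the other genes tested on each chromosome. On chromosome 11 the bars reach -0.41 and -0.37 and the 5 points lie above them, and most other points lie above their bars.

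The calls were also set beside promoter letters and transcript length. Of all genes tested, 18% were called higher and 22.2% lower with FGF, and 22.5% and 23.3% without FGF. The split by motif covers only the 39 genes with a promoter window. Of the 25 genes with both motifs 8 rose and 2 fell with FGF, and 13 rose and 1 fell without FGF. Of the 5 genes with neither motif 2 rose with FGF and 3 without FGF. These numbers are too small to compare. With FGF, 10 genes of the longer 25 and 10 of the shorter 25 were called higher; without FGF the counts were 13 and 17. Some counts are uncertain, because the strand setting of the counting is not given and exons overlap those of a gene on the other strand: over 29.3% of the exon length of Kif20a (with Cdc23), 22.8% of Ube2c (with Tnnc2) and 15.1% of Kif4 (with Pdzd11). Ccnb1, Mad2l1, Ndc80, Pbk and Racgap1 each have at least 1 annotated copy whose transcript is at least 95% identical over 300 bases or more; the copies were not analysed here, and how reads that match both were counted was not tested.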

How the data were processed

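The values are whole-number read counts for each gene symbol, as deposited by the authors without normalization. The submitters' processing notes name STAR 2.7.9a and featureCounts, beside FastQC 0.11.9 and R 4.1.1, and the builds mm10 and hg38; which gene models, strand option and rule for multi-mapped reads were used is not given in the sources used here. Per the labels' protocols, libraries came from a stranded polyA kit. Replicates of a group differed by more than sampling noise (chi-square per degree of freedom at least 3.264).

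Genes were filtered with filterByExpr, scaled by TMM and tested two-sided with edgeR 4.0.16 (quasi-likelihood F-test; R 4.3.3) with 1 coefficient per group, all 12 libraries, 8 residual degrees of freedom and Benjamini-Hochberg adjustment over 12079 genes. Every adjusted p is from this test unless another tool is named. The SE is the log2 fold change divided by the square root of F. Alternatives were DESeq2 1.42.0, voom in limma 3.58.1, upper-quartile and RLE scaling, no or a stricter filter (1 CPM in 3 libraries), a replicate block, the compared libraries alone, a correction of each library for exon length and GC content, and leaving out each library.

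Gene models are GENCODE vM21 (mm10). Genes were given in full where they had the smallest p (5 in the interaction, 3 per direction in the other comparisons) or the highest CPM per kb of their role; Mki67 was added after its values were seen. The genes, roles and lists were chosen with earlier results of these data known. The test was also run on simulated counts with known changes. That simulation held no library set apart by exon length or GC content, so it does not cover such a library in these data.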

Additional observations from a re-analysis of the deposited data

How the results depend on the processing

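The median log2 fold change of the 50 genes kept its sign in every comparison and alternative run. In knockout cells with FGF against without, 3 genes were called lower. DESeq2, the length and GC correction, and the replicate block with that correction called 5 each. The shares of all genes called lower were then 2.598%, 2.591% and 2.542%, against 0.9438% in the main fit. The fit without a filter on low counts, the replicate block and the compared libraries alone called 0 each. Leaving out 1 library at a time gave 0 to 6, with 6 without Etv4_KO replicate 2. For the knockout effect with FGF, the compared libraries alone called 34 genes higher, against 20. The share of all genes called higher was then 27.43%, against 18.05%. Leave-one-out fits gave 17 to 35 higher and 3 to 7 lower, the highest both without Etv4_KO replicate 2. For the knockout effect without FGF, 2 genes were called lower with the length and GC correction and 3 with the block as well, against 1. The shares of all genes called lower were 26.89% and 27.32%, against 23.26%. Leave-one-out fits gave 28 to 36 higher and 1 to 4 lower. Without Etv4_KO replicate 2, Cenpe (0.1701, adjusted p = 0.02848) and Ect2 (0.2496, adjusted p = 0.003422) were called higher, against values just below 0 with all libraries; their lowest values, without Etv4_KO replicate 3, were -0.1765 and -0.1996, and the cause was not tested. No alternative gave a call among the 50 for FGF in control cells or for the interaction. Of the calls, 25 of 31 without FGF, 18 of 24 with FGF and 0 of 3 for FGF in knockout cells were kept in all 22 alternatives.

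The labels share the replicate numbers 1 to 3 without saying what a number stands for. Same-numbered libraries correlated between -0.087 and 0.343 in their deviations from the group means, and under 0.1 for most pairs, so the numbers were not taken as pairing. With the replicate block, the knockout effect without FGF had 32 genes higher and 1 lower, and with FGF 21 and 3. With 3 libraries per group and a median SE of 0.08, small changes may go undetected, and for the interaction the median SE was 0.11.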
